A study of Mus musculus with 12 samples.

Results

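The genes of stellate cell activation and of TGF-beta signaling described here are 10 in number: the TGF-beta ligands Tgfb1, Tgfb2 and Tgfb3, the TGF-beta activator Thbs1, the growth factor receptors Pdgfra and Pdgfrb, the cytoskeletal genes Acta2, Tagln and Des, and the TGF-beta target Ctgf. They were taken by name from the 47729 genes of the deposited count files, and each was found by its Ensembl identifier (Ctgf is listed as Ccn2 in the annotation). All 10 passed the filter on low counts, which kept 16823 genes. RNA-seq was run on liver tissue of male C57BL/6 mice at the end of a study of nonalcoholic steatohepatitis (NASH), with 4 mice in each of 3 groups. Healthy mice were naive animals given vehicle from week 6 to week 9. STAM mice received streptozotocin, which destroys pancreatic islets, at 2 days of age and a high fat diet from week 4, and were dosed by mouth from week 6 to week 9 with vehicle (STAM-vehicle) or with 10 mg/kg I-BET151, an inhibitor of the BET family of chromatin readers (STAM-I-BET151). In the study's methods, I-BET151 was suspended in another carrier than the vehicle given to controls, so that carrier and compound cannot be told apart here. STAM mice are both diabetic and fat-fed, and these cannot be told apart either.

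Hepatic stellate cells store vitamin A in the healthy liver and carry the intermediate filament desmin (Des) and receptors for platelet-derived growth factor. On injury they turn into contractile, collagen-producing myofibroblasts, for which smooth muscle actin (Acta2) and transgelin (Tagln) are the usual readouts. TGF-beta is the main fibrogenic signal: it is secreted in a latent form, released by integrins or by thrombospondin 1 (Thbs1), and acts through its receptors and the SMAD proteins on targets such as Ctgf and the collagens. In whole liver these transcripts also come from portal fibroblasts, vessel walls, endothelium and blood-derived cells.

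The libraries held between 34711229 and 53365596 counts. Hepatocyte markers were abundant in every mouse, with a summed level of 20169 to 126977 CPM (counts scaled to a common library size, with TMM normalization). STAM-I-BET151 mouse 3 stood apart: its 10 most abundant genes took 7.95% of counts against 13.5 to 18.1% in the other 11 mice, its mitochondrial share was 2.71% against 4.51 to 7.31%, and its TMM factor was 1.61 against 0.770 to 1.11. It also had the lowest hepatocyte sum, 20169 CPM, while the other 3 treated mice held 70669 to 86632 CPM. Counts of genes past a threshold are therefore given with this mouse and, where they changed, in edgeR without it. The sequencing lane, read from the names of the files, was not balanced over the groups.

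Set per kilobase of exon, the members spanned a wide range of levels. In STAM-vehicle mice Ctgf was the highest at 7.00 ± 2.25 CPM per kb (SD, n = 4), followed by Tagln at 5.48 ± 0.334 and Pdgfrb at 3.38 ± 0.819, and the lowest 3 were Thbs1 at 0.937 ± 0.225, Tgfb3 at 0.673 ± 0.117 and Tgfb2 at 0.219 ± 0.0581 CPM per kb. In this order the values of neighboring genes overlapped between mice except between Tagln and Pdgfrb and between Tgfb3 and Tgfb2. Among the ligands, Tgfb1 stood at 2.14 ± 0.486 CPM per kb, and no STAM-vehicle mouse had as much Tgfb3 or Tgfb2 per kb as the mouse with the least Tgfb1, which held 1.58. In healthy mice Ctgf was again the highest, at 8.35 ± 4.07 CPM per kb, and Tgfb2 the lowest, at 0.130 ± 0.0167, while Tgfb3 stood above Thbs1 with overlapping values. Tgfb2 was read at only 23 to 95 counts per mouse, the fewest of the 10, and Ctgf at 413 to 1925.

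Promoters were read from RefSeq (GRCm38.p6) for 5 of the 10 genes: Acta2, Des, Pdgfra, Tgfb1 and Tgfb2. The 250 bases before the RefSeq start are shown for Tgfb1 and Tgfb2, the ligands farthest apart in level, with any match to the searched motifs in capitals. Tgfb1 lies on the plus strand of chromosome 7 (chr7:25686752-25687001 for the window) and Tgfb2 on the minus strand of chromosome 1 (chr1:186705990-186706239). Both windows end where the first exon of the GENCODE gene begins.
Tgfb1: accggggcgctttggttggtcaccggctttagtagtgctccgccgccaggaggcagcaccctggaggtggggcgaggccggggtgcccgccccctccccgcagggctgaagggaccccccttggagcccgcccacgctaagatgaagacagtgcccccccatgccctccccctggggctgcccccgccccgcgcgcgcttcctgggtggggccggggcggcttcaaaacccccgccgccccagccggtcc
Tgfb2: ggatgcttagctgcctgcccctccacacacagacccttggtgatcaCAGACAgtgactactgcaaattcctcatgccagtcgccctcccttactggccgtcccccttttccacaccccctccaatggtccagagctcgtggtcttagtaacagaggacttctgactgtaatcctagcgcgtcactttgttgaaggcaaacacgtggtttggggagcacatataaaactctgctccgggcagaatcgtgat
The Tgfb1 window is 75.2% G or C and the Tgfb2 window 53.6%. On either strand, CAGACA, a sequence bound by SMADs, occurred in the Tgfb2 window and in that of Acta2, 2 of the 5 genes, and in 17.1% of all 32851 promoter windows of this length. CATTCC, bound by the TEAD partners of YAP, occurred in 1 of the 5, Acta2, and in 12.6% of all windows. The CArG box, bound by serum response factor, was searched only as CC and GG with an unbroken run of A or T between them. Neither this form nor TGANTCA, bound by AP-1, was found in the 5 windows, and these occur in 1.47% and 6.75% of all windows. CArG elements with another base within the run were not searched, so that their absence is not shown. Most of the Acta2 window, 217 of 250 bases, lies in an exon of the GENCODE gene and is not printed.

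The first comparison asked what the disease model did to these genes. In STAM-vehicle livers 1 of the 10 genes, Thbs1, passed an adjusted p of 0.05 and rose, where 7.01% of all genes tested passed in either direction and 5.65% rose. The fitted log2 fold changes were above 0 for 9 of the 10 and below 0 for Ctgf, with a median of 0.57 against 0.0089 over all genes tested. At an unadjusted p under 0.05, 4 of the 10 passed (Thbs1, Tgfb2, Tgfb3 and Pdgfrb), against 22.1% of all genes. A change in the number of cells of a type and a change in RNA per cell cannot be told apart in these bulk samples.

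**Figure D1:**
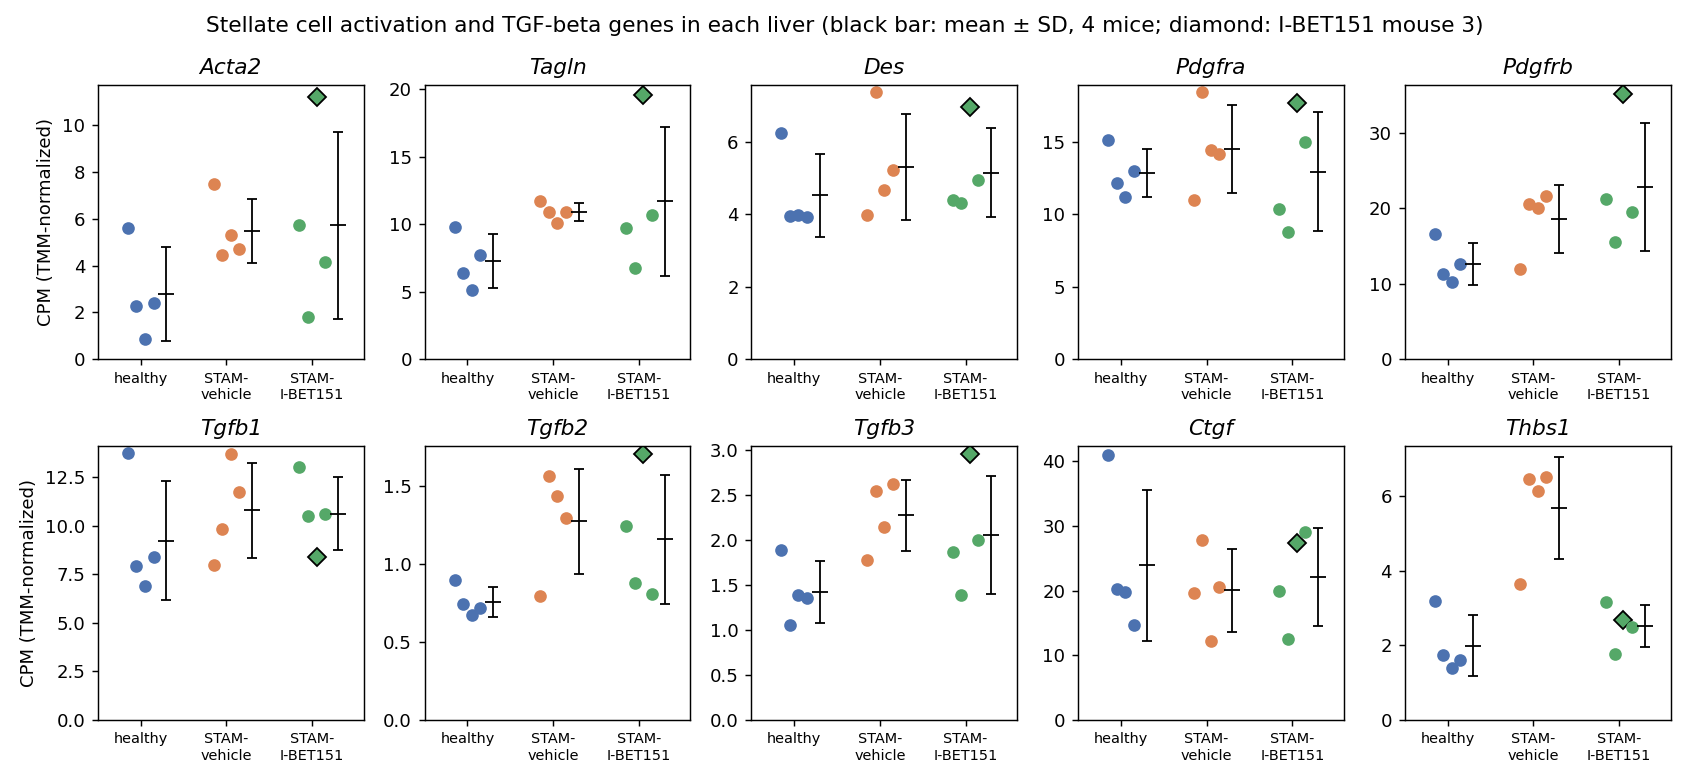
Level of each of the 10 genes in each liver, in CPM on TMM-normalized library sizes, for 4 healthy, 4 STAM-vehicle and 4 STAM-I-BET151 mice in order of mouse number, with the mean and SD of each group in black and STAM-I-BET151 mouse 3 as a diamond. The 4 STAM-vehicle mice lie above all healthy mice for Thbs1 and Tagln, as for 14.2% of all genes. The 4 STAM-I-BET151 mice lie below all STAM-vehicle mice for Thbs1, as for 2.63% of all genes.

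Thbs1 (chr2:118111876-118127133, plus strand) encodes a secreted glycoprotein of platelets, macrophages and injured tissue that can release TGF-beta from its latent complex. It stood at 3.19, 1.75, 1.40 and 1.61 CPM in healthy mice 1 to 4 and at 3.65, 6.46, 6.13 and 6.51 CPM in STAM-vehicle mice 1 to 4. STAM-vehicle mouse 1 was well below its group and just above the highest healthy mouse. The groups did not overlap, which was so for 14.2% of all genes in this direction. The log2 fold change was 1.51 with an SE of 0.28 and an edgeR adjusted p of 0.00715, and it was 1.49 without STAM-I-BET151 mouse 3. With lane as a covariate the log2 fold change was 0.91 and the call was lost at an edgeR adjusted p of 0.570, as were most calls over all genes. In the only lane shared by a healthy and a STAM-vehicle mouse, Thbs1 was higher in the STAM-vehicle mouse by 1.02 in log2 CPM. Of the other platelet genes tested, 0 of 3 passed: Pf4 had a log2 fold change of 1.26 and an edgeR adjusted p of 0.0708, and the summed level of the 6 platelet markers ran from 5.32 to 5.84 CPM in healthy and from 7.51 to 8.74 CPM in STAM-vehicle mice. Without STAM-I-BET151 mouse 3, 2 of the 3 rose, Pf4 and Itga2b, at edgeR adjusted p values of 0.0369 and 0.0267, where 22.3% of all genes passed. Of the macrophage markers 3 of 8 rose (Adgre1, Cd68 and Clec4f), or 5 without STAM-I-BET151 mouse 3 (also Csf1r and Cd5l), and their sum ran from 226.8 to 320.3 CPM in healthy and from 356.6 to 643.9 CPM in STAM-vehicle mice. The part of these cells in the Thbs1 result was not tested.

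The 3 ligands are separate genes for proteins that bind the same receptors. Tgfb1 (chr7:25687002-25705077), the form made by macrophages and platelets as well as stellate cells, ran from 6.92 to 13.7 CPM in healthy mice and from 7.98 to 13.7 CPM in STAM-vehicle mice. The ranges covered each other, and its log2 fold change of 0.22 had a 95% interval from -0.26 to 0.71. Tgfb2 (chr1:186622792-186705989) stood at 0.894, 0.742, 0.669 and 0.719 CPM in healthy mice 1 to 4 and at 0.793, 1.56, 1.43 and 1.29 CPM in STAM-vehicle mice 1 to 4. Only STAM-vehicle mouse 1 lay within the healthy range. The Tgfb2 log2 fold change was 0.75 ± 0.29 (SE) with an edgeR adjusted p of 0.147. Tgfb3 (chr12:86056745-86079041) stood at 1.89, 1.06, 1.40 and 1.35 CPM in healthy mice 1 to 4 and at 1.78, 2.55, 2.15 and 2.63 CPM in STAM-vehicle mice 1 to 4. Here too mouse 1 of each group accounted for the overlap, the healthy one being the highest and the STAM-vehicle one the lowest. Its log2 fold change was 0.67 ± 0.26 (SE), with an edgeR adjusted p of 0.141 in all 12 mice and 0.0435 without STAM-I-BET151 mouse 3.

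The PDGF receptors mark stellate cells and fibroblasts. Pdgfrb (chr18:61045150-61085061), the receptor that carries the proliferative signal of PDGF in stellate cells, stood at 16.6, 11.2, 10.2 and 12.6 CPM in healthy mice 1 to 4 and at 11.9, 20.6, 20.1 and 21.6 CPM in STAM-vehicle mice 1 to 4. STAM-vehicle mice 2 to 4 were above every healthy mouse and mouse 1 was not. The log2 fold change was 0.55 ± 0.25 (SE) with an edgeR adjusted p of 0.222. Pdgfra (chr5:75152292-75198215) had a median of 12.5 CPM in healthy mice and of 14.3 CPM in STAM-vehicle mice, whose ranges overlapped, with a log2 fold change of 0.18 and a 95% interval from -0.29 to 0.64.

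Acta2 (chr19:34241090-34255590, minus strand), the classical mark of the activated stellate cell, stood at 5.62, 2.28, 0.843 and 2.39 CPM in healthy mice 1 to 4 and at 7.48, 4.44, 5.32 and 4.69 CPM in STAM-vehicle mice 1 to 4. Healthy mouse 1 lay above 3 of the 4 STAM-vehicle mice, and the healthy group spanned a 6.66-fold range from its lowest to its highest mouse. The ratio of the group means was 1.97, and the log2 fold change of 0.96 had an SE of 0.53, a 95% interval from -0.17 to 2.10 and an edgeR adjusted p of 0.309. Tagln (chr9:45929619-45936058, minus strand), an actin-binding protein of smooth muscle and myofibroblasts, was steadier, at 9.77, 6.41, 5.09 and 7.73 CPM in healthy mice 1 to 4 and 11.7, 10.9, 10.1 and 10.9 CPM in STAM-vehicle mice 1 to 4. The groups did not overlap, which was so for 14.2% of all genes in this direction. The Tagln log2 fold change of 0.58 ± 0.28 (SE) had an edgeR adjusted p of 0.233 in all 12 mice and of 0.0438 without STAM-I-BET151 mouse 3. Reads of Tagln could be shared with the protease gene Pcsk7 and with Gm48529, both on the opposite strand, whose exons together cover 67.9% of its exon bases, because the strand setting of the counting is not given in the sources used here. Des (chr1:75360329-75368579) stood between 3.91 and 6.24 CPM in healthy and between 3.97 and 7.37 CPM in STAM-vehicle mice, with a log2 fold change of 0.23 and a 95% interval from -0.28 to 0.74.

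Ctgf (chr10:24595442-24598683), a matricellular protein induced by TGF-beta and by the YAP/TEAD pathway, was the only member with a lower fitted level in STAM-vehicle mice. It stood at 41.0, 20.2, 19.8 and 14.7 CPM in healthy mice 1 to 4 and at 19.6, 27.9, 12.1 and 20.5 CPM in STAM-vehicle mice 1 to 4. The groups overlapped, and the log2 fold change of -0.26 (95% interval -0.98 to 0.47) became 0.14 without healthy mouse 1.

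The number of members that passed in this comparison depended on STAM-I-BET151 mouse 3, although it belongs to neither group. All groups share an estimate of the spread in the fit, and the mouse also enters the filter and the normalization. The part of each was not tested. With it, Thbs1 alone passed in DESeq2 too (10.2% of all genes). In limma-voom with sample weights 6 of the 10 passed, where 33.7% of all genes did. That fit kept the mouse but gave it a weight of 0.0749, against 0.594 to 2.75 for the other mice. Without STAM-I-BET151 mouse 3, 3 of the 10 passed in edgeR (Thbs1, Tagln and Tgfb3), where 22.3% of all genes did, and 5 passed in DESeq2 (also Tgfb2 and Pdgfrb), where 23.1% of all genes did. The fitted fold changes hardly moved, from a median of 0.57 to one of 0.54.

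**Figure D2:**
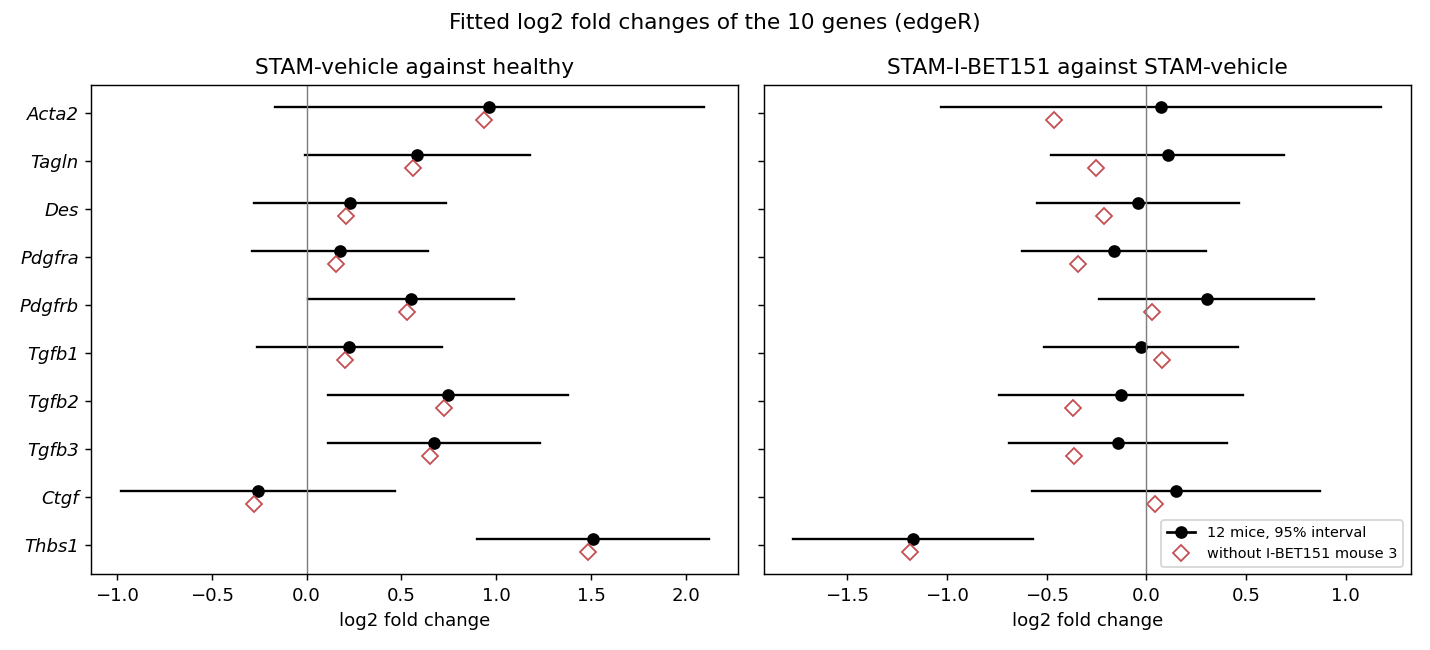
Fitted edgeR log2 fold change of each of the 10 genes for STAM-vehicle against healthy (left) and STAM-I-BET151 against STAM-vehicle (right), with the 95% interval over all 12 mice in black and the value without STAM-I-BET151 mouse 3 as an open diamond. On the left the 2 values lie close together for every gene, and on the right Acta2 moves from 0.07 to -0.46 and Tagln from 0.11 to -0.25 while Thbs1 stays near -1.17.

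The second comparison asked what I-BET151 did in STAM mice. In edgeR 0 of the 10 genes passed an adjusted p of 0.1, where 0.339% of all genes passed in either direction. At an unadjusted p under 0.05 in edgeR 1 of the 10 passed, Thbs1, where 8.6% of all genes did, and the same gene was the only member to pass in DESeq2 (1.48% of all genes) and in limma-voom with sample weights (7.16%). The median fitted log2 fold change of the 10 was -0.03 against 0.02 over all genes tested, and 6 of the 10 were below 0. In edgeR without STAM-I-BET151 mouse 3 that median was -0.30 against 0.0042, and 7 of the 10 were below 0.

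Thbs1 stood at 3.15, 1.78, 2.67 and 2.48 CPM in STAM-I-BET151 mice 1 to 4, against 3.65 to 6.51 CPM in the STAM-vehicle mice. Every treated mouse was below every STAM-vehicle mouse, which was so for 2.63% of all genes, and the highest treated mouse was close to STAM-vehicle mouse 1. The log2 fold change was -1.17 with an SE of 0.28 and a 95% interval from -1.77 to -0.57, and the ratio of the group means was 0.443. The edgeR adjusted p was 0.153 in all 12 mice and 0.0900 without STAM-I-BET151 mouse 3, and DESeq2 gave adjusted p values of 0.00650 and 0.00556 for the same sets of mice. Without mouse 3, Thbs1 was the member that passed in either tool, where 2.3% of all genes passed in edgeR and 8.27% in DESeq2. In the 3 lanes that held a mouse of each group, the treated mouse differed from the STAM-vehicle mouse in Thbs1 by -1.38, -0.21 and -1.19 in log2 CPM. Of the platelet markers tested 0 of 3 passed in edgeR, with Pf4 at a log2 fold change of 0.01, and of the macrophage markers 0 of 8, and 0 of either had an unadjusted p under 0.05 or passed in DESeq2. The sum of the macrophage markers ran from 287.9 to 578.8 CPM in treated mice, which overlapped with the STAM-vehicle range.

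**Figure D3:**
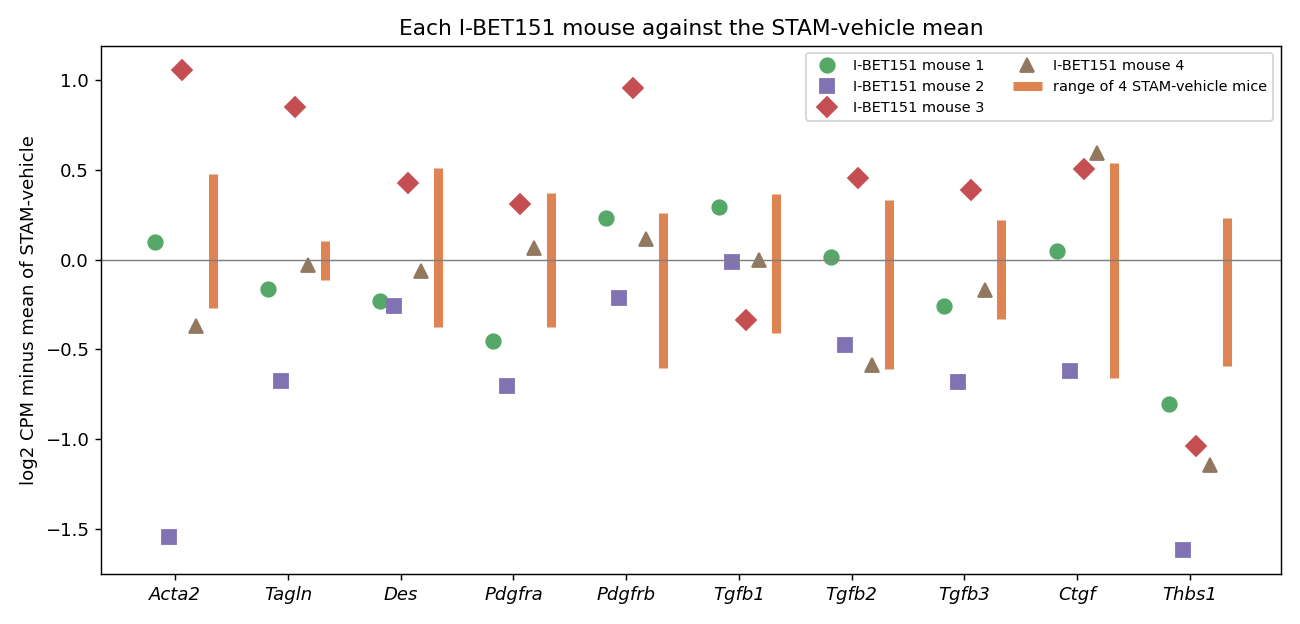
Difference in log2 CPM between each STAM-I-BET151 mouse and the mean of the 4 STAM-vehicle mice, for each of the 10 genes, with the range of the STAM-vehicle mice as an orange bar. Mouse 3 (red diamonds) is the highest of the 4 for 7 genes and the lowest for Tgfb1, and Thbs1 is the only gene for which all 4 treated mice lie below the bar.

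For the cytoskeletal genes the treated mice disagreed with each other. Acta2 stood at 5.75, 1.81, 11.2 and 4.14 CPM in STAM-I-BET151 mice 1 to 4, so that the highest and the lowest treated mouse enclosed the whole STAM-vehicle range of 4.44 to 7.48 CPM. The log2 fold change was 0.07 with a 95% interval from -1.03 to 1.18, and it became -0.46 without mouse 3, at an edgeR adjusted p of 0.669. Tagln stood at 9.71, 6.78, 19.6 and 10.7 CPM. Its log2 fold change was 0.11 with all mice (95% interval -0.48 to 0.69) and -0.25 without mouse 3. In both genes the sign of the treatment difference changed without this mouse. Des ran from 4.31 to 6.96 CPM and its log2 fold change was -0.04 (95% interval -0.55 to 0.46), or -0.21 without mouse 3.

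Among the receptors, Pdgfrb stood at 21.2, 15.5, 35.1 and 19.6 CPM in STAM-I-BET151 mice 1 to 4, with mouse 3 far above the other mice of the study. The log2 fold change against STAM-vehicle was 0.30 (95% interval -0.24 to 0.84) and 0.03 without mouse 3. Pdgfra stood at 10.4, 8.74, 17.7 and 14.9 CPM, and its log2 fold change was -0.16 (95% interval -0.63 to 0.30), or -0.34 without mouse 3. For the ligands, the log2 fold change was -0.03 for Tgfb1 (95% interval -0.51 to 0.46), -0.13 for Tgfb2 (-0.74 to 0.48) and -0.14 for Tgfb3 (-0.69 to 0.40). Without mouse 3 these values were 0.08, -0.37 and -0.36. Ctgf ran from 12.4 to 29.0 CPM, with a log2 fold change of 0.15 (95% interval -0.57 to 0.87), or 0.04 without mouse 3.

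Against healthy mice, STAM-I-BET151 livers were compared to see where the genes stood at the end of dosing. These values share the healthy and the treated mice with the comparisons above. Of the 10 genes 1, Pdgfrb, passed an adjusted p of 0.05 and was higher, where 14.9% of all genes passed in either direction and 9.75% were higher. Its log2 fold change was 0.85 ± 0.25 (SE) with an edgeR adjusted p of 0.0385, and 0.56 with an edgeR adjusted p of 0.0787 without mouse 3. The call was also lost without 8 of the other 11 mice, each left out in turn. Pdgfrb also passed in DESeq2 (17.8% of all genes) and in limma-voom (29%). Without mouse 3 the count was 0 of 10 in edgeR (20.2% of all genes) and in DESeq2 (21%). With all mice 2 of the 10 had an unadjusted p under 0.05 in edgeR, against 32.4% of all genes. Thbs1 had a log2 fold change of 0.34 (95% interval -0.27 to 0.95) and an edgeR adjusted p of 0.426, and its levels in treated mice, 1.78 to 3.15 CPM, lay within the healthy range of 1.40 to 3.19 CPM. Acta2 had a log2 fold change of 1.04 and an edgeR adjusted p of 0.190, and Tagln of 0.69 and 0.103, and without mouse 3 the log2 fold changes were 0.47 and 0.31.

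Within groups, single mice were high or low for many of the 10 genes together. STAM-I-BET151 mouse 3 was the highest of its group for 7 of the 10 members, where it was the highest for 42.3% of all genes, and it was the lowest for Tgfb1, as for 39.3% of all genes. For Acta2 it held 11.2 CPM against 1.81 to 5.75 CPM in the other 3, for Tagln 19.6 against 6.78 to 10.7, and for Pdgfrb 35.1 against 15.5 to 21.2. In the same mouse the smooth muscle marker sum was 28.0 CPM against 9.49 to 15.2 CPM, the portal fibroblast marker sum 41.0 against 23.2 to 27.9, and the sum of matrix genes of activated stellate cells 342.3 against 185.9 to 265.1. Thbs1, at 2.67 CPM, and Ctgf, at 27.3 CPM, were within the range of the other treated mice. The part of depth, composition or RNA quality in the values of this mouse was not tested.

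Healthy mouse 1 was the highest of its group for all 10 members, where it was the highest for 34.1% of all genes. It held 5.62 CPM of Acta2 against 0.843 to 2.39 CPM in the other 3 healthy mice, 41.0 CPM of Ctgf against 14.7 to 20.2 and 13.7 CPM of Tgfb1 against 6.92 to 8.37. Its summed markers of portal fibroblasts, 23.7 CPM, of smooth muscle, 15.7 CPM, of endothelium, 406.8 CPM, and of macrophages, 320.3 CPM, were also the highest of the healthy group, and its hepatocyte sum, 104212 CPM, was the lowest. Its part in the comparisons appears without it: the log2 fold change of Acta2 between STAM-vehicle and healthy mice was then 1.57 and that of Thbs1 1.85. Within STAM-vehicle mice, mouse 1 was the lowest for 7 of the 10 members, where it was the lowest for 28.1% of all genes, and the highest for Acta2 and Tagln, as for 29% of all genes.

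Across the 12 mice, Acta2 and Tagln followed each other most closely of the 45 pairs of members, with a Pearson r of log2 CPM of 0.94, and an r of 0.91 after the group means were taken out. Pdgfrb and Tgfb2 had an r of 0.88 and of 0.90 after group means were taken out, and Tgfb1 and Ctgf an r of 0.08. All points of these correlations share libraries, and mouse-wide differences in cell makeup enter every pair, so that they are given as a description. Among 13140 genes with a mean of at least 1 CPM, the pattern most like Acta2 over the 12 mice was that of Myl9, a myosin light chain of smooth muscle (r = 0.96), followed by Scn7a and Dpt. Tagln was most like Thbs2, a relative of Thbs1 (r = 0.97), Plekhg2 and Gmip. Pdgfrb was most like Cygb, a globin of stellate cells (r = 0.98), the collagen gene Col6a1 (r = 0.97) and the collagen receptor gene Mrc2 (r = 0.97). Thbs1 was most like Lilra5 (r = 0.95), Epsti1 and Ptpn22, genes expressed in immune cells, and its own r with Acta2 was 0.62 and with Pdgfrb 0.53, the latter being 0.78 after group means were taken out and 0.94 when STAM-I-BET151 mouse 3 was also left out. The closest genes were Pamr1 for Tgfb2 (r = 0.96), Atp8b2 for Tgfb3 (r = 0.96), Faap24 for Tgfb1 (r = 0.94), Mylip for Ctgf (r = 0.91), Bud13 for Des (r = 0.90) and Phactr1 for Pdgfra (r = 0.86). Tgfb2 was read at few counts, which limits any r for it. These ranks are those over all 12 mice, and several moved without STAM-I-BET151 mouse 3. The closest genes then stood at rank 5 (Myl9), 7 (Bud13), 6 (Phactr1), 4 (Lilra5), 3 (Faap24) and 2 (Cygb and Mylip). Thbs2, Pamr1 and Atp8b2 stayed at rank 1.

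**Figure D4:**
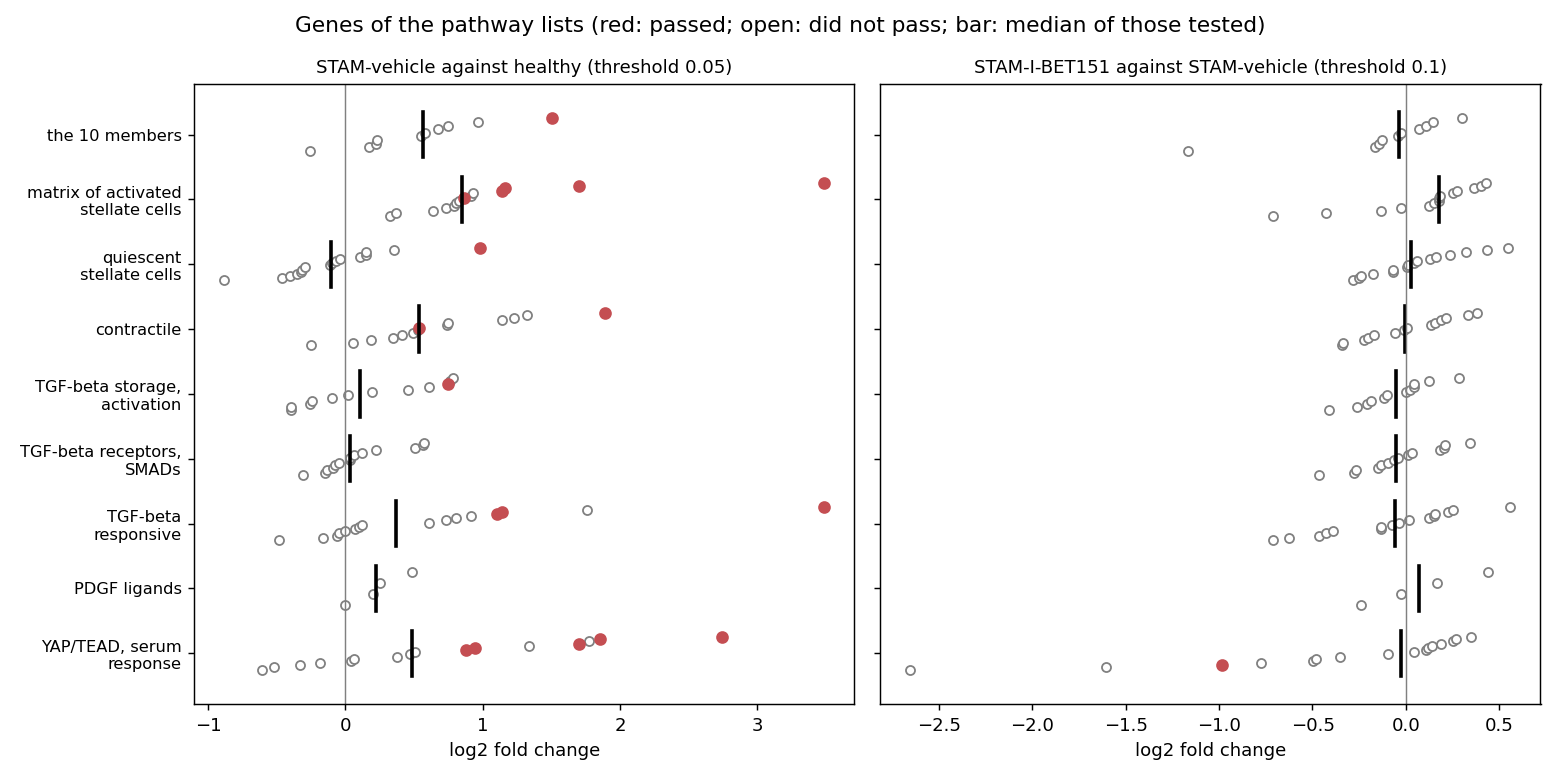
Fitted edgeR log2 fold change of every tested gene of the 10 members and of 8 related lists, for STAM-vehicle against healthy (left) and STAM-I-BET151 against STAM-vehicle (right), with genes past the threshold in red and the list median as a black bar. All 14 matrix genes lie above 0 on the left and the red point on the right is Ier2.

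The genes around the 10 were examined as lists. In STAM-vehicle against healthy 7.01% of all genes passed in edgeR, and 22.3% without STAM-I-BET151 mouse 3. These shares were 0.339% and 2.3% for I-BET151 against STAM-vehicle, and 14.9% and 20.2% for STAM-I-BET151 against healthy. The lists were chosen with earlier results of these data known, so that their order is a description only. Of the 8 pathway lists, the matrix genes of activated stellate cells had the highest median in the disease model. Of these genes 14 of 14 had a log2 fold change above 0 in STAM-vehicle mice, with a median of 0.85. In all, 5 rose past the threshold, namely Timp1 (3.49), Col5a2 (1.70), Loxl2 (1.16), Col1a1 (1.14) and Lum (0.87). Without STAM-I-BET151 mouse 3 as many as 11 of the 14 rose. Col1a1, a chain of the main fibrillar collagen, ran from 5.30 to 9.21 CPM in healthy and from 10.4 to 16.8 CPM in STAM-vehicle mice. The groups did not overlap, which was so for 14.2% of all genes in this direction. Timp1, an inhibitor of matrix proteases, ran from 0 to 0.106 CPM in healthy and from 0.385 to 0.812 CPM in STAM-vehicle mice, the healthy values resting on 0 to 5 counts. Of the markers of portal fibroblasts, another collagen-producing cell, 7 of 7 were above 0, with a median of 0.87, and 3 rose, Cd34, Entpd2 and Fbln2, or 5 without STAM-I-BET151 mouse 3 (also Eln and Mfap4). The part of portal fibroblasts in the matrix values was not tested.

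Markers of quiescent stellate cells had a median log2 fold change of -0.10 in STAM-vehicle mice, and the only one of 16 that passed, Rgs5, which is also a pericyte gene, rose by 0.98. Lrat, the enzyme that esterifies retinol for storage in these cells, ran from 9.26 to 12.4 CPM in healthy and from 6.06 to 8.85 CPM in STAM-vehicle mice. It did not overlap between these groups, which was so for 12.2% of all genes in this direction. Its log2 fold change of -0.46 had an edgeR adjusted p of 0.0995 with all mice, and without STAM-I-BET151 mouse 3 Lrat fell by 0.48 on the log2 scale with an edgeR adjusted p of 0.0376. In treated mice Lrat ran from 9.19 to 12.1 CPM, above every STAM-vehicle mouse, which was so for 2.41% of all genes. Its log2 fold change with I-BET151 was 0.44 with an edgeR adjusted p of 0.425. The list as a whole had a median of 0.03 with I-BET151, with 10 of the 16 above 0 and 6 below. Without mouse 3 the list median was -0.04, with 6 above 0 and 10 below.

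Of the contractile genes other than the members, 13 of 14 had a log2 fold change above 0 in STAM-vehicle mice. Of the 14, 2 rose, the tropomyosins Tpm1 (0.54) and Tpm2 (1.89). Without STAM-I-BET151 mouse 3 the count was 4 (also Flna and Synpo2), where 22.3% of all genes passed. Tpm2 ran from 2.38 to 4.04 CPM in healthy and from 6.69 to 15.5 CPM in STAM-vehicle mice. The 6 smooth muscle markers, all part of the contractile list, were above 0 and 0 passed in edgeR, while 2 had an unadjusted p under 0.05 and 1, Synpo2, passed in DESeq2 and, without STAM-I-BET151 mouse 3, in edgeR (adjusted p of 0.0196). Their sum ran from 6.74 to 15.7 CPM in healthy and from 14.2 to 18.9 CPM in STAM-vehicle mice. Acta1, the skeletal muscle actin and a close relative of Acta2, was at 0 counts in all healthy mice and at 1 to 20 counts in STAM-vehicle mice. How the counting assigned reads shared by the actin genes was not tested.

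Of 12 tested genes of TGF-beta storage and activation 1 rose in STAM-vehicle mice, Fbn1, the fibrillin that anchors latent TGF-beta in the matrix. It ran from 3.50 to 4.58 CPM in healthy and from 5.87 to 7.77 CPM in STAM-vehicle mice, with a log2 fold change of 0.75 and an edgeR adjusted p of 0.0433. In edgeR 4 of the 12 rose without STAM-I-BET151 mouse 3 (also Ltbp2, Ltbp3 and Nrros), where 22.3% of all genes passed. Of 14 receptor and SMAD pathway genes 0 passed in edgeR and 0 in DESeq2, and 3 had an unadjusted p under 0.05. Without STAM-I-BET151 mouse 3 the receptor gene Tgfbr2 passed in edgeR. Over the list the median log2 fold change was 0.04 with all mice, and the values farthest from 0 were those of the receptors Tgfbr2 (0.57) and Acvrl1 (0.57) and of the inhibitory Smad6 (0.51). Of the 4 PDGF ligands 0 passed in edgeR and 1, Pdgfa, passed in DESeq2 and had an unadjusted p under 0.05, with a log2 fold change of 0.49 beside 0.25 for Pdgfc and 0.20 for Pdgfd, and it rose in edgeR without STAM-I-BET151 mouse 3.

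Below the receptors, of 16 TGF-beta responsive genes other than the members 3 rose in STAM-vehicle mice: Col1a1 and Timp1, which are also matrix genes of the list above, and Pmepa1, a feedback inhibitor of TGF-beta signaling with a log2 fold change of 1.10. Without STAM-I-BET151 mouse 3, 7 of the 16 rose. Pmepa1 ran from 2.01 to 2.92 CPM in healthy and from 3.70 to 6.05 CPM in STAM-vehicle mice. Of 16 YAP/TEAD and serum response genes 5 rose, Atf3 (2.75), Ier3 (1.86), Fos (1.70), Ajuba (0.95) and Axl (0.88). In all, 8 of the 16 passed without STAM-I-BET151 mouse 3, 6 higher and 2 lower (Amotl2 and Lats2). Cyr61, the closest relative of Ctgf in this list, had a log2 fold change of -0.52 and an edgeR adjusted p of 0.283.

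With I-BET151, 1 gene of the pathway lists passed an adjusted p of 0.1, the immediate early gene Ier2. It ran from 21.4 to 39.7 CPM in STAM-vehicle and from 12.3 to 17.5 CPM in STAM-I-BET151 mice. The groups did not overlap, which was so for 2.63% of all genes in this direction. Ier2 fell by 0.98 on the log2 scale with an edgeR adjusted p of 0.0699. The transcription factor gene Egr1 ran from 84.7 to 301.8 CPM in STAM-vehicle and from 17.9 to 54.6 CPM in treated mice, with a log2 fold change of -2.65 and an edgeR adjusted p of 0.153. Egr1, Fos and Junb passed in DESeq2 together with Ier2, which makes 4 of the 16. Without mouse 3 the genes that passed in edgeR were Ier2 and Junb, both lower. Over the whole list 8 genes had log2 fold changes above 0 and 8 below, with a median of -0.02 with all mice and -0.19 without mouse 3. With I-BET151 the median over the 14 matrix genes was 0.18 in log2 fold change, and 0 passed in edgeR or DESeq2 or had an unadjusted p under 0.05. Without mouse 3 their median was -0.09. Of the other pathway lists 0 genes passed in edgeR with or without mouse 3, or in DESeq2 with all mice, and at an unadjusted p under 0.05 there were 2 receptor and SMAD pathway genes (Skil and Smurf1), 1 TGF-beta responsive gene (Skil again), 1 contractile gene (Actn1), 1 marker of quiescent stellate cells (Lrat), and 0 genes of storage and activation or PDGF ligands. DESeq2 without mouse 3 gave 1 gene of storage and activation, 2 TGF-beta responsive genes, 1 PDGF ligand and 1 contractile gene. Without mouse 3 the median log2 fold change was -0.40 over the TGF-beta responsive genes and -0.35 over the contractile genes, against -0.06 and -0.0022 with it.

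Against healthy mice, 11 of the 14 matrix genes were higher in STAM-I-BET151 mice, led by Timp1 (3.36), Col5a2 (1.68) and Col1a1 (1.40), and 10 were so without mouse 3. Of the TGF-beta responsive genes 4 were higher in this comparison, and of the contractile genes 5, or 3 without mouse 3. The storage and activation genes gave 3 higher (Ltbp3, Nrros and Fbn1) and 1 lower, Ltbp4, and the markers of quiescent stellate cells 1 higher, Rgs5, and 2 lower, Reln and Ecm1. Of these lists the storage genes gave Itgb5 in place of Fbn1 without mouse 3. Of the YAP/TEAD and serum response genes 4 were higher and 1, Junb, lower, against 4 and 3 without mouse 3. The receptor and SMAD genes and the PDGF ligands gave 0 in edgeR, with 4 and 2 at an unadjusted p under 0.05 and 1 and 0 in DESeq2, and each gave 1 in edgeR without mouse 3 (Tgfbr2 and Pdgfc).

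Markers of other cells of the liver were read in the same way. In STAM-vehicle mice, 7 of 7 hepatocyte markers had log2 fold changes below 0, with a median of -0.62. Of these 0 passed in edgeR or DESeq2, 2 had an unadjusted p under 0.05, and 4 fell past the threshold in edgeR without STAM-I-BET151 mouse 3. Of 4 neutrophil markers tested 1, Ngp, rose in edgeR and 3 passed in DESeq2, as did 3 in edgeR without mouse 3. Of 5 mesothelial, 7 endothelial and 6 cholangiocyte markers 0 passed in edgeR or DESeq2, with 0, 1 and 2 at an unadjusted p under 0.05. Without mouse 3, 1 endothelial marker (Lyve1) and 1 cholangiocyte marker (Krt7) passed in edgeR. With I-BET151, 0 markers of these cells passed in edgeR with or without mouse 3. At an unadjusted p under 0.05 with all mice there were Ngp, which passed in DESeq2, and the cholangiocyte marker Krt19. The part of these cells in the values of the 10 genes was not tested.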

How the data were processed

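RNA-seq counts of liver from 12 mice, 4 per group, were analysed with groups taken from the sample labels. Per the labels and the study's methods, libraries were made with a stranded mRNA kit, reads were aligned with STAR 2.5.1b to mm10, and the authors deposited whole-number counts per gene without normalization. HTSeq is named for counting, while the file names point to another counter, and the annotation release and strand setting are not given in the sources used here. Symbols, positions and exon lengths came from GENCODE release M21, which held 47310 of the 47729 identifiers (99.1%). Library totals of 34711229 to 53365596 counts set the precision of low genes such as Tgfb2.

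All 12 mice entered 1 fit in edgeR 4.0.16 (R 4.3.3) using TMM library sizes and the robust quasi-likelihood test on genes that filterByExpr kept at a minimum count of 10, with Benjamini-Hochberg adjustment at an adjusted p of at most 0.05, or 0.1 for I-BET151 against STAM-vehicle, the study's thresholds. Standard errors were derived from the log2 fold change and its F statistic. Levels are CPM on TMM-normalized library sizes, and correlations used log2 CPM with a prior count of 2. The study left out 1 STAM-I-BET151 sample that it did not name, and all 4 are kept here. DESeq2 1.42.0, limma-voom (limma 3.58.1), other normalizations and filters, fits of 2 groups, a replicate block, a lane covariate and fits without each mouse were alternatives. The scripts were tested on simulated counts. Mice of a group differed by more than counting noise, so that none was a repeat of another. All 10 genes are named with their values. List genes are mostly named where they passed with or without STAM-I-BET151 mouse 3, or the 3 with the largest change where more than 5 or none did. Some genes that passed are given only as counts, so that the named genes are not complete. Lrat, Cyr61 and Egr1 were added after their values were seen. The 10 genes and the lists (182 entries) were chosen with earlier results of these data known.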

Additional observations from a re-analysis of the deposited data

Results flagged for a closer look

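A mouse was marked where its distance to the nearest of its group, divided by the range of the 4, exceeded Dixon's 95% critical value. Of 30 groups of 4 values (10 genes in 3 groups) 3 were marked, and chance marks about 1 in 20 groups. Des in healthy mouse 1 stood at 6.24 CPM, with the other 3 healthy mice between 3.91 and 3.98 CPM. Pdgfrb in STAM-vehicle mouse 1 stood at 11.9 CPM, with the other 3 of its group between 20.1 and 21.6 CPM. Thbs1 in the same mouse stood at 3.65 CPM, with the other 3 between 6.13 and 6.51 CPM. Acta2 and Tagln of this mouse were, in contrast, the highest of their group.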

How the results depend on the processing

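STAM-vehicle against healthy gave 1 member past the threshold, and 5 in DESeq2 without STAM-I-BET151 mouse 3, 4 with only the 2 groups compared, 6 in limma-voom with sample weights, 0 with lane as a covariate and 1 to 3 with each mouse left out (3 without STAM-I-BET151 mouse 3). I-BET151 against STAM-vehicle gave 0, but 1 in DESeq2 with or without that mouse, 1 with no filter on low counts, 1 with only the 2 groups without that mouse, 1 in limma-voom, and 0 to 1 with each mouse left out (1 without healthy mouse 1 or that mouse). STAM-I-BET151 against healthy gave 1, but 0 in DESeq2 without that mouse, 0 with only the 2 groups with or without it, 0 with the replicate block, 0 with lane, and 0 to 2 with each mouse left out. Over all genes the counts were 1179, 57 and 2512, and 3783, 390 and 3433 without that mouse, 1910, 268 and 3427 in DESeq2, 5672, 1205 and 4880 in limma-voom, and 37, 0 and 85 with lane. DESeq2 without that mouse gave 4369, 1287 and 4092. With only the 2 groups the counts were 3897, 8 and 1230, and without that mouse 258 for I-BET151 against STAM-vehicle and 2615 for STAM-I-BET151 against healthy. With no filter I-BET151 against STAM-vehicle gave 71. With each mouse left out the counts ran from 532 to 3783, from 12 to 390 and from 1247 to 3718.

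The setting that turned the most signs, 16, was lane, which is unbalanced over the groups. With lane the log2 fold changes of STAM-vehicle against healthy were -0.47 for Acta2, -0.29 for Des, -0.31 for Pdgfra, -0.0079 for Pdgfrb, -0.12 for Tagln and -0.049 for Tgfb1. Those of I-BET151 against STAM-vehicle were 0.25 for Des, 0.048 for Pdgfra, 0.011 for Tgfb1, 0.078 for Tgfb2 and 0.023 for Tgfb3, and those against healthy -0.32 for Acta2, -0.038 for Des, -0.26 for Pdgfra, -0.038 for Tgfb1 and -0.0036 for Thbs1. In limma-voom Ctgf was 0.15 for STAM-vehicle and 0.20 for STAM-I-BET151 against healthy, and Acta2, Tagln and Tgfb1 were -0.22, -0.16 and 0.096 with I-BET151. Without STAM-I-BET151 mouse 3 the same 3 were -0.48, -0.25 and 0.084 in DESeq2 and -0.47, -0.26 and 0.072 with only the 2 groups. Pdgfra in STAM-I-BET151 against healthy was -0.029 in DESeq2, -0.18 in DESeq2 and -0.17 with only the 2 groups without that mouse, -0.013 with RLE normalization, -0.016 with no filter and -0.0721 in limma-voom. With each mouse left out, signs turned for STAM-vehicle against healthy in Ctgf (-0.46 to 0.14), for I-BET151 in Acta2 (-0.46 to 0.35), Ctgf (-0.033 to 0.35), Des (-0.21 to 0.16), Tagln (-0.25 to 0.28), Tgfb1 (-0.15 to 0.11) and Tgfb2 (-0.37 to 0.010), and for STAM-I-BET151 against healthy in Ctgf (-0.28 to 0.29), Des (-0.0063 to 0.39) and Pdgfra (-0.19 to 0.15). The cause was not tested.

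Same-numbered mice had a mean correlation of deviations of -0.0927 (12 pairs), so that the numbers do not pair the mice. With the replicate block 1, 0 and 0 members passed, Pdgfrb in STAM-I-BET151 against healthy had a log2 fold change of 0.80, Acta2 with I-BET151 -0.029 and Pdgfra against healthy -0.0199, and 705, 3 and 1557 of all genes passed. Depth limits Tgfb2, the member with the fewest counts.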
